A study of Mus musculus with 11 samples.

Results

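Semaphorins, plexins and neuropilins were examined in single cells from the floor of the developing mouse cochlear duct. Members were taken by gene symbol: every gene named Sema3 to Sema7 with a letter from a to g, every plexin named Plxna to Plxnd with a number, and both neuropilins. The rule used no measured value and found 31 members among 24898 genes in 4 tables, 20 semaphorins, 9 plexins and 2 neuropilins. Tables for E14 and E16 list 30 of them, without Sema3g, and those for P1 and P7 list all 31. Cells came from 11 droplet libraries of wild-type CD1 mice, with no allele or treatment named in the labels, 2 at embryonic day E14, 3 at E16, 4 at postnatal day P1 and 2 at P7. Every library pooled the dissected cochlear ducts of several animals, so that no value belongs to 1 animal, and age, table and day of collection cannot be told apart.

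Semaphorins are guidance proteins that share a sema domain, and plexins are their main receptors. Class 3 semaphorins are secreted and mostly act through neuropilins, which bind the ligand and pair with an A-type plexin that passes the signal into the cell. The other vertebrate classes are held at the membrane and bind plexins directly, and several of them can themselves act as receptors. The family is best known for steering axons, and in the cochlea for how the fibres of spiral ganglion neurons find and sort among hair cells (HCs). No cluster of cells was named as neurons here, though 1 unnamed E14 cluster and 1 unnamed P7 cluster scored best for neuron markers (1.58 and 0.37, next lists 0.52 and 0.26), so no value is given for the fibres. Glia and mesenchyme, named at P7, are not epithelial.

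Cell groups were rebuilt, because the identity of each cell was not among the files used here. A group name stands for clusters that carried the markers of that cell type, and most markers came from the study's own lists on these libraries. Members took no part in clustering or naming. The groups, from medial to lateral, were interdental cells, Kölliker's organ (KO), inner phalangeal cells, inner and outer HCs (IHCs and OHCs), lateral prosensory cells (LPsCs) at E14 and E16, pillar and Deiters' cells (PC/DCs) at P1 and P7, Hensen's cells and lateral non-sensory cells with markers of outer sulcus, Claudius' cells and the lesser epithelial ridge. Further groups were the Oc90-positive cells of the duct roof, cycling cells, and glia and mesenchyme at P7. Libraries held 1247 to 5598 cells and 3828399 to 23523802 unique molecular identifiers (UMIs), with medians of 2478 to 5647.5 UMIs per cell. In 1 E16 library haemoglobin transcripts reached 948 CPM, and its part in any result was not tested. Between 9 and 84 cell barcodes were shared between libraries of an age.

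A level is the mean over the cells of a group in 1 library of the member's share of the cell's UMIs, scaled to 1000000 (CPM). Since UMIs mark the 3′ ends of transcripts, no length enters the values, and levels are compared between groups and not between genes. Levels are listed in replicate order, and a mean is given with its SD over the 2, 3, 4 or 2 libraries of the age. Each group was compared with all other cells of the same libraries on log2(CPM + 10) with limma, leaving out genes whose mean was under 10 CPM, and a member was called at an adjusted p below 0.05 over all genes tested. A member that is low in all other cells passes this filter only through the group where it is high. Its call then adds no support beyond the levels. This holds for every higher call below where the other cells are given at a mean under 10 CPM. The added 10 CPM makes the fold change of a low gene smaller than the ratio of its means. That test takes its variance mostly from the other genes at every age. In E14 HCs, KO, interdental, cycling and lateral non-sensory cells a gene's own spread had no weight. The same held between P7 IHCs and OHCs. P-values thus measure a spread between libraries of pooled animals that is largely shared over genes. Fewer expressing cells or less RNA per cell cannot be told apart in a mean.

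Most members were low. In named groups, 13 of 31 reached a mean of 50 CPM in at least 1 group and age, 12 peaked between 20 and 50 CPM and 6 stayed under 20 CPM (Plxna3, Plxnc1, Sema3e, Sema3g, Sema4a and Sema6c). Unnamed clusters are left out wherever a highest level is given. Over 28 comparisons of a group with the rest, 27 members were tested at least once and 21 were called at least once. Plxnc1, Sema3e, Sema3g and Sema4a never passed the filter. There were 134 calls, 72 higher and 62 lower. The share of all genes called is given below beside the count of each comparison. Each group is part of the rest of the other groups of its age, so that these calls are not separate results. The heat map of mean levels shows the broad pattern: a medial domain with Sema3c, a lateral domain with Sema3a, a band of Sema6a and Sema3f in LPsCs and PC/DCs, and Sema5b and Sema6b in HCs.

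**Figure D1:**
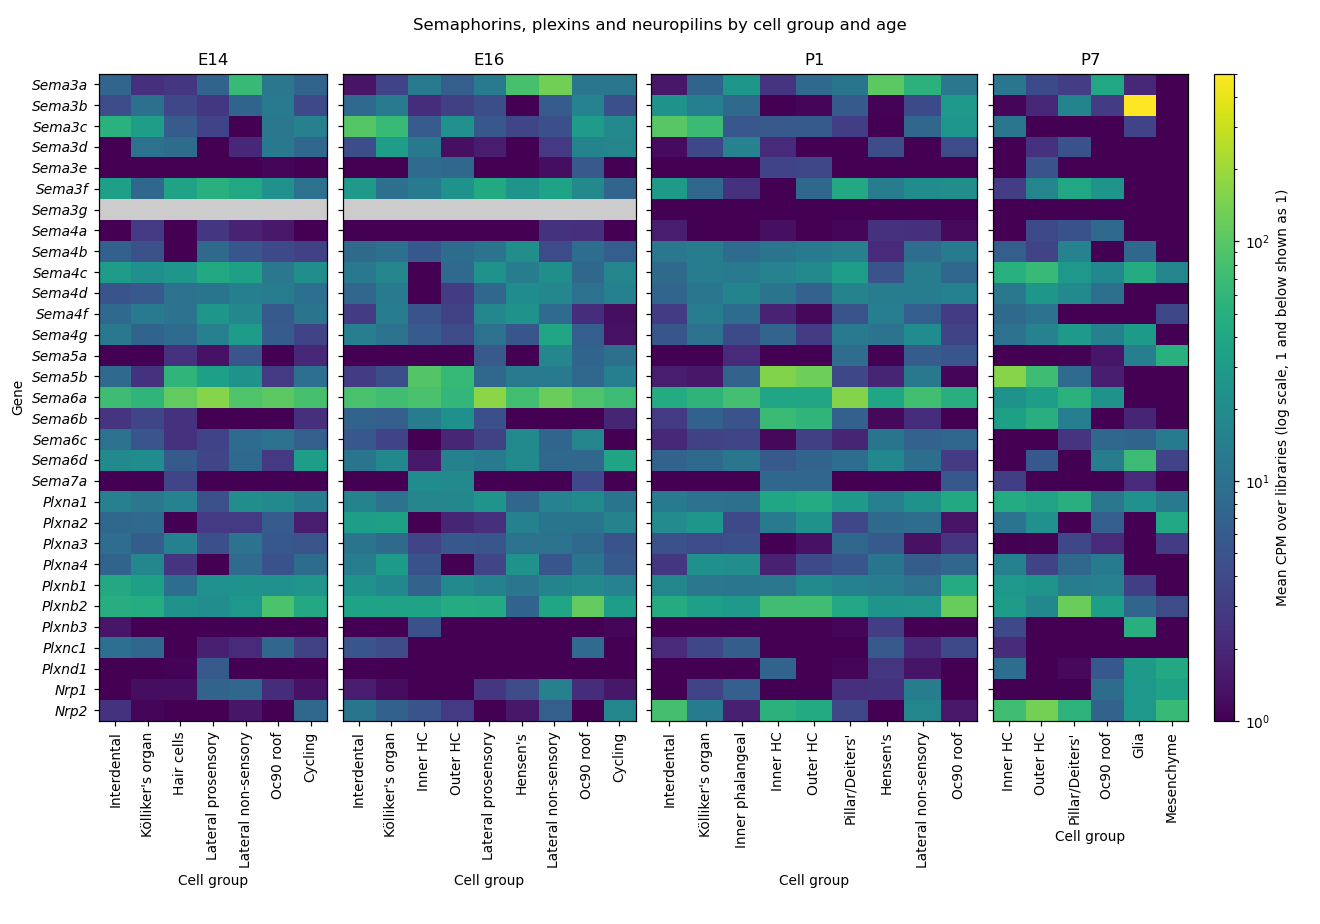
Mean CPM over libraries (colour, log scale, values of 1 and below drawn as 1) of the 31 members (vertical axis) in each named group (horizontal axis) at E14, E16, P1 and P7, with grey where the table does not list the gene. Sema3c is brightest in interdental cells and KO up to P1, Sema3a in lateral non-sensory and Hensen's cells, Sema5b in HCs and Sema3b in P7 glia.

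Counts of called members were read against the share of all genes called in the same comparison. That share was computed for the main setting only. Counts given for other settings have no matching share and describe only how far the calls depend on the setting. In HCs, 1 of 14, 9 of 15, 7 of 11 and 9 of 13 tested members were called at E14, E16, P1 and P7, where 12.7%, 40.5%, 69.4% and 64.7% of all genes were. At P1 and P7 the members' share was near that of any gene. In KO, 5 of 12, 8 of 16 and 12 of 16 members were called at E14, E16 and P1, against 19.3%, 20.2% and 38.2% of all genes. Lateral non-sensory cells had 9 of 13, 6 of 16 and 2 of 15 at these ages, against 30.9%, 10% and 16.2%. The P1 count there was near the background, while those at E14 and E16 were above it. LPsCs had 6 of 13 and 6 of 15 at E14 and E16, against 11.1% and 17.3%. The E14 count was 0 of 30 without the filter on low genes and 2 of 10 without cells of over 3000 genes. PC/DCs had 9 of 14 and 7 of 12 at P1 and P7, against 41.5% and 35%. Interdental cells had 2 of 12, 2 of 12 and 7 of 11, against 14.4%, 14.8% and 33.5%. The E16 count there was 4 of 12 without E16 replicate 1. Without the library as a block, P1 counts were 2 of 16 in KO and 3 of 11 in interdental cells, and the E16 KO count was 5 of 16. The members' median log2 fold change ran from -0.25 in E16 cycling cells to 0.79 in P7 HCs, where all genes had -0.07 and 0.11. It was 0.69 in P7 glia, 0.59 in P7 PC/DCs, 0.35 in P7 mesenchyme and 0.34 in E14 lateral non-sensory cells. All genes had -0.13, -0.05, -0.22 and 0.01 there. In E16 LPsCs, P1 inner phalangeal cells and E16 HCs the members' median was -0.23, -0.23 and -0.18, where all genes had -0.03, -0.03 and -0.01. Members that passed the filter only through a group can raise its median. These values describe the list, and no test of a list was run.

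Counts in the remaining groups varied. Oc90 cells had 4 of 10, 1 of 16 and 3 of 13 at E14, E16 and P1 (34.3%, 14.1% and 15.2% of all genes). The E14 count was 8 of 12 with coarser clusters and 8 of 13 weighted by depth, and the P1 count 1 of 11 without P1 replicate 1 or P1 replicate 4. Hensen's cells had 2 of 16 and 2 of 12 at E16 and P1 (6.21% and 16%), with 0 of 14 at E16 without E16 replicate 2 and 1 of 18 without E16 replicate 3. Cycling cells had 3 of 12 and 1 of 15 at E14 and E16 (36% and 12%), and the 1 E16 call was lost without E16 replicate 2 or E16 replicate 3. P1 inner phalangeal cells had 8 of 14 (27.3%), a count that fell to 4 of 15 without P1 replicate 2, 4 of 13 without P1 replicate 4, 5 of 15 without P1 replicate 1 and 5 of 12 without P1 replicate 3. P7 glia had 3 of 12 (21.9%), with 1 of 12 when 1 CPM was added and 5 of 13 with coarser clusters. In P7 mesenchyme 0 of 10 members were called by limma, with 3 at an unadjusted p below 0.05 (7.2% of all genes called), and in the P7 Oc90 cluster 0 of 11, with 1 (6.59%). With coarser clusters these counts were 6 of 10, with 3 higher and 3 lower, and 3 of 9, all lower. Without the filter on low genes they were 9 and 7 of 31, all lower. The P7 Oc90 cluster was a doubtful match to its name: its summed Oc90 roof cells markers were 164 to 8795 CPM in its 2 libraries, while the list for outer sulcus, Claudius or lesser ridge cells summed to 11384 to 15617 CPM. Over all genes tested, the median log2 fold change was 0.12 in P1 HCs, 0.11 in P7 HCs, -0.17 in E16 Hensen's cells, -0.13 in P7 glia and within 0.1 of 0 in the other cell groups with a called member.

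The 4 secreted class 3 genes Sema3d, Sema3a, Sema3e and Sema3c lie on chromosome 5 (mm10, GENCODE vM21), all on the plus strand, within 5.347 Mb between 12383385 and 17730268. Promoters are printed for the pair whose levels lay on opposite sides of the duct, Sema3c and Sema3a, and for Sema5b and Sema6b, which were higher in HCs than in other cells at E16, P1 and P7. Each is the 250 bases before the RefSeq start on GRCm38.p6, written 5′ to 3′ on the gene's strand. Capitals mark matches to an E-box or a GC-box on either strand. E-boxes are bound by basic helix-loop-helix factors, and the first one searched reads CAGCTG, the same on both strands. The other E-box searched reads CAGATG, whose reverse strand appears as CATCTG. GC-boxes are bound by Sp factors, and the letters searched were GGGCGG, whose reverse strand appears as CCGCCC. In the order printed, the promoters lie at chr5:17574566-17574815 on the plus strand, chr5:13396534-13396783 on the plus strand, chr16:35541112-35541361 on the plus strand and chr17:56140344-56140593 on the minus strand, the more distal of 2 Sema6b starts.
Sema3c: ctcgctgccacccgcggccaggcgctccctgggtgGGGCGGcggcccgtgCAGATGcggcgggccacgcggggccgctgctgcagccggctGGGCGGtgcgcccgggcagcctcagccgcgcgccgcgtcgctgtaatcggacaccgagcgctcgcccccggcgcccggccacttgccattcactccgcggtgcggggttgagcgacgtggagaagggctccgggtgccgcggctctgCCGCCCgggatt
Sema3a: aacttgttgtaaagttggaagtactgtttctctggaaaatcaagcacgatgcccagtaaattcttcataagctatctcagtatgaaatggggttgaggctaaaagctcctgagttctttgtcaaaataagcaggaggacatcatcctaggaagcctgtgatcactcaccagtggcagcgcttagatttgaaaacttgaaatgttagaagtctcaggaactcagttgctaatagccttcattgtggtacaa
Sema5b: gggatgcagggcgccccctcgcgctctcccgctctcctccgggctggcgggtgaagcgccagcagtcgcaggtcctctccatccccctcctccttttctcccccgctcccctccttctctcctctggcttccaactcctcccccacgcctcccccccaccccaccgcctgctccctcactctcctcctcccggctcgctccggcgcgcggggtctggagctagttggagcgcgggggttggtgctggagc
Sema6b: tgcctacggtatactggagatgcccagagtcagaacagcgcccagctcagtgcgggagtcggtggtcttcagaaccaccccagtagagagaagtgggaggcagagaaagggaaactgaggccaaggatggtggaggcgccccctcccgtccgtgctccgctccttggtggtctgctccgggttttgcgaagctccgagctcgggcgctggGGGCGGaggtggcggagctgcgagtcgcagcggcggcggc
Sema3c held 1 CAGATG and 3 GGGCGG matches, Sema6b 1 GGGCGG match, and Sema3a and Sema5b none of the letters searched. These matches are for the RefSeq starts used and not for the GENCODE starts. The Sema3a stretch lies far inside its gene, which starts at 13125414 in GENCODE. The Sema3c stretch lies after that gene's start at 17574281, and the Sema5b stretch runs past its gene's start at 35541145. Of 32851 mouse promoters of the same length, 13% held CAGCTG, 14.44% CAGATG and 32.74% GGGCGG, counted on both strands, so that a match is common and is a description only. RefSeq's table held no promoter for Plxna1, Plxna4, Sema3b, Sema3f and Sema6a.

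Sema3c, a secreted ligand of neuropilins, marked the medial duct from E14 to P1. Interdental cells, which secrete the tectorial membrane's medial attachment, had 48.4 and 58.6 CPM at E14, 116, 102 and 76 at E16 and 84.6, 121, 109.8 and 86.6 at P1. KO, the tall medial epithelium next to the IHCs, had E14 levels of 32.9 and 31.5 CPM, E16 levels of 77.3, 83.2 and 39.5 and P1 levels of 66.8, 78, 70.6 and 63.6. In every library both groups lay above the other cells, whose means were 12.2 ± 0.925, 32.1 ± 6.54 and 30.4 ± 5.05 CPM beside KO. The difference was called at each age in interdental cells (log2 fold change 1.41, SE 0.22, adjusted p = 8.4e-09 at E14, log2 fold change 1.14, SE 0.15, adjusted p = 0.000128 at E16 and log2 fold change 1.07, SE 0.08, adjusted p = 2.39e-06 at P1). So it was in KO (log2 fold change 0.93, SE 0.16, adjusted p = 5.52e-08, then log2 fold change 0.82, SE 0.13, adjusted p = 0.00134 and log2 fold change 0.99, SE 0.06, adjusted p = 7.71e-06).

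Lateral to KO Sema3c was low. At P1 the means were 5.57 ± 1.99 CPM in HCs, 5.45 ± 3.54 in inner phalangeal cells and 3.07 ± 1.16 in PC/DCs. All 3 groups were called lower (log2 fold change -1.99, SE 0.15, adjusted p = 8.68e-07 in HCs, log2 fold change -2.01, SE 0.15, adjusted p = 1.67e-08 in inner phalangeal cells and log2 fold change -2.24, SE 0.13, adjusted p = 1.55e-07 in PC/DCs). LPsCs were also lower at E16, with 1.8, 13.2 and 1.17 CPM (log2 fold change -2.05, SE 0.23, adjusted p = 2.6e-05). So were lateral non-sensory cells at E14, E16 and P1, with means of 1.02 ± 0.528, 4.51 ± 2.65 and 7.69 ± 5.78 CPM. Hensen's cells held 3 UMIs at P1, a ratio to the other cells of 0.0554 with a counting interval of 0.0114 to 0.162. E16 HCs were not uniform, with 31, 26.1 and 1.72 CPM, and were called lower (log2 fold change -1.17, SE 0.22, adjusted p = 0.00018). Their summed Kolliker's organ cells markers ranged from 1954 to 2318 CPM, and their part in the Sema3c levels was not tested. Sema3c had the most cell group calls of the family, 18, of which 6 were higher and 12 lower. As the groups of an age serve in each other's rest, these are not separate results. At P7 its mean over all cells was 3.54 ± 1.36 CPM. It had 0 UMIs in OHCs and PC/DCs, which allows up to 2.25 and 2.54 CPM at 3 UMIs over the group, for counting error only.

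Sema3a, the founding secreted repellent of the family, had the opposite distribution. Lateral non-sensory cells had 63.5 and 66.7 CPM at E14, 139, 169 and 92 at E16 and 78.9, 41.7, 61.6 and 34.2 at P1, against means of 7.83 ± 1.02, 9.25 ± 1.44 and 9.71 ± 7.38 CPM in all other cells. No library overlapped with the other cells of its own library at any age. The differences were called (log2 fold change 2.07, SE 0.14, adjusted p = 4.71e-48 at E14, log2 fold change 2.86, SE 0.23, adjusted p = 2.74e-07 at E16, log2 fold change 1.71, SE 0.23, adjusted p = 4.48e-05 at P1). Hensen's cells, which lie between the organ of Corti and those cells, had 89.2, 98.7 and 57.6 CPM at E16 and 163, 117, 109 and 27 at P1. They were called higher at P1 (log2 fold change 2.42, SE 0.29, adjusted p = 1.73e-05) and at E16 (log2 fold change 1.84, SE 0.44, adjusted p = 0.00642). The E16 call was lost without E16 replicate 2 (log2 fold change 1.67, adjusted p = 0.0855) and with 1 CPM added in place of 10 (adjusted p = 0.0526). P1 replicate 4 was the low library in Hensen's cells.

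In KO Sema3a was low, with 1.59 and 3.07 CPM at E14 and 3.03, 4.38 and 3.16 at E16. It was called lower there at both ages (log2 fold change -1.37, SE 0.16, adjusted p = 9.01e-16 and log2 fold change -1.4, SE 0.13, adjusted p = 6.3e-05). P1 replicate 1 stood apart for Sema3a, with 22.3 CPM over all cells against 6.55, 8.12 and 4.92 in replicates 2 to 4. Its KO had 15.8 CPM. Inner phalangeal cells, which surround the IHCs, were a second P1 site, with 48.9, 21.2, 25.8 and 12.6 CPM against 9.29 ± 7.28 in the rest (log2 fold change 0.92, SE 0.13, adjusted p = 4.13e-05). At P7 HCs and PC/DCs were lower than the rest, with 8.43 and 4.47 CPM in HCs (log2 fold change -0.95, SE 0.24, adjusted p = 0.000877) and 3.05 and 3.08 in PC/DCs (log2 fold change -1.25, SE 0.31, adjusted p = 0.000513). The P7 Oc90 cluster, which carried outer sulcus markers as given above, had 33.1 and 49.3 CPM and was not called.

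Sema3f, the secreted ligand that prefers Nrp2, was highest in a lateral band. LPsCs, the precursors of OHCs and lateral supporting cells, had 59.1 and 44.6 CPM at E14 and 52.1, 51.4 and 27.7 at E16, and PC/DCs had 38.7, 51.6, 48.3 and 32.6 at P1 and 48.4 and 34.7 at P7. Every one of these libraries lay above its own remaining cells, whose means were 20.04 ± 2.77, 17.2 ± 5.45, 9.36 ± 0.791 and 2.97 ± 1.51 CPM. At P1 and P7 Sema3f thus passed the filter only through PC/DCs, and the calls there add no support beyond the levels. The PC/DC calls held under every alternative tried (log2 fold change 1.43, SE 0.13, adjusted p = 5.46e-06 at P1, log2 fold change 1.98, SE 0.30, adjusted p = 3.37e-08 at P7). The LPsC calls (log2 fold change 1.04, SE 0.25, adjusted p = 0.0179 at E14, log2 fold change 0.97, SE 0.20, adjusted p = 0.00404 at E16) did not. That at E14 was lost without the filter on low genes (adjusted p = 0.0642) or without cells of over 3000 genes (adjusted p = 0.0633). That at E16 was lost without E16 replicate 2 (log2 fold change 0.85, adjusted p = 0.081).

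Sema3f had a medial site too. P1 interdental cells had 32.7, 34.8, 25.9 and 24.3 CPM, all above the remaining cells at 9.5 ± 0.517 (log2 fold change 1.01, SE 0.11, adjusted p = 2.41e-05). KO between both sites was lower than the rest at E14, E16 and P1, with means of 7.99 ± 0.842, 9.74 ± 2.03 and 8.06 ± 1.05 CPM. E14 lateral non-sensory cells were higher, with 40.5 and 43 CPM (log2 fold change 0.96, SE 0.14, adjusted p = 6.34e-11). The plot from medial to lateral groups sets the 3 profiles side by side.

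**Figure D2:**
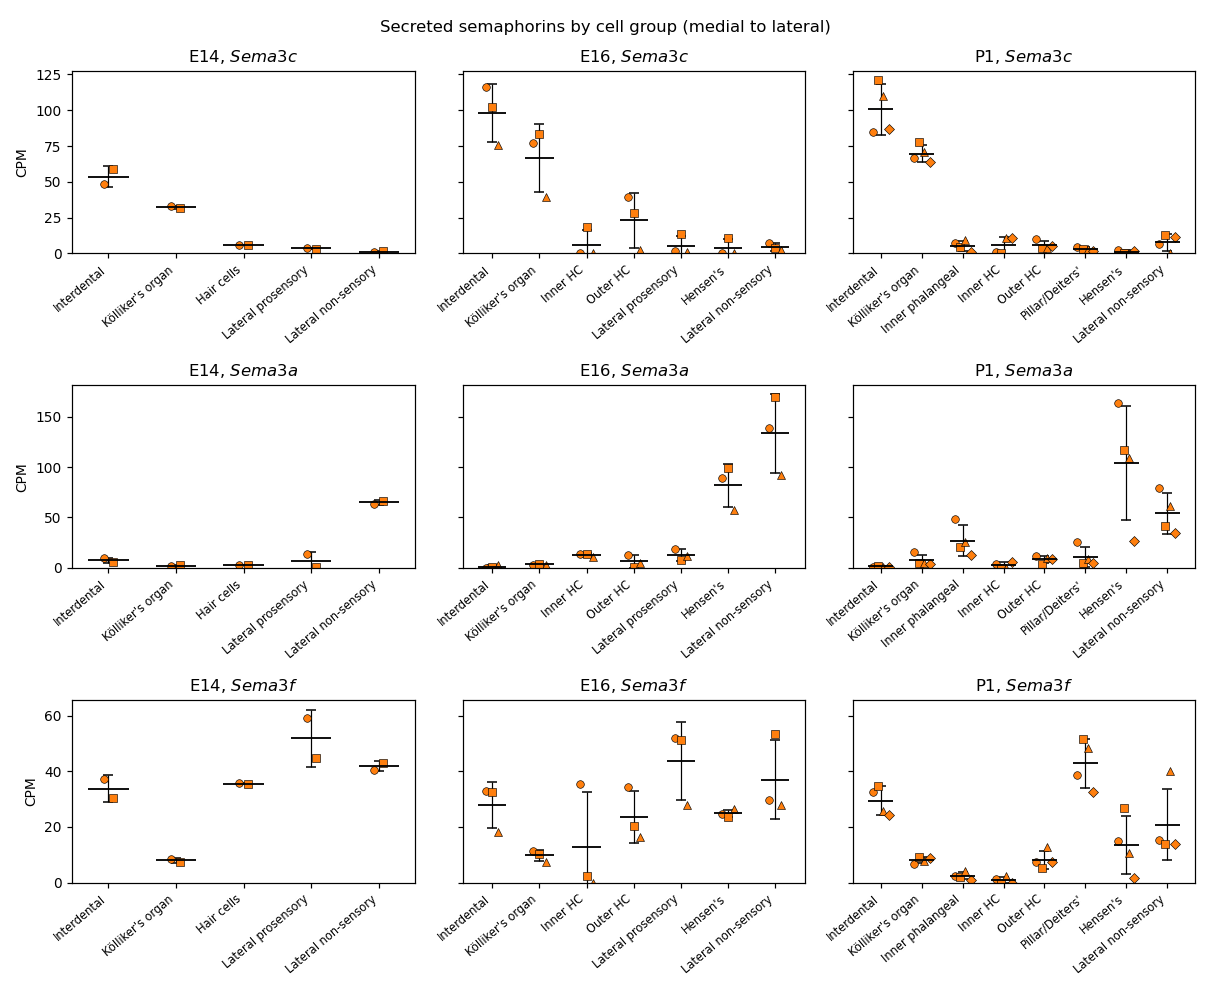
CPM of Sema3c, Sema3a and Sema3f in each library (points, marker by replicate: circle 1, square 2, triangle 3, diamond 4), with the mean (bar) and SD (error bar, cut at 0), for groups ordered from medial to lateral at E14, E16 and P1. Sema3c falls from interdental cells and KO to low levels in the lateral groups, while Sema3a is high in lateral non-sensory and Hensen's cells.

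Sema3d, secreted like the others, was a KO gene at E16. KO had 8.61 and 11.5 CPM at E14, 33.8, 38.1 and 24.8 at E16 and 4.96, 1.93, 3.77 and 4.75 at P1, so that the E16 libraries lay above all those of the other ages. E16 KO exceeded the other E16 cells at 8.55 ± 1.58 CPM (log2 fold change 1.18, SE 0.15, adjusted p = 0.000387). Between ages, the fall from E16 to P1 was called (log2 fold change -1.6, SE 0.18, adjusted p = 0.000362) and held without any 1 library. The rise from E14 to E16 (log2 fold change 1.06, SE 0.21, adjusted p = 0.0248) was lost without E14 replicate 1 (adjusted p = 0.375), E14 replicate 2 (adjusted p = 0.167), E16 replicate 1 (adjusted p = 0.104) or E16 replicate 2 (adjusted p = 0.119). In these KO comparisons 1 of 14 members was called in each, against 1.8% of all genes from E14 to E16, where the median gene shifted by -0.19, and 8.92% from E16 to P1. At P1 the highest Sema3d mean was in inner phalangeal cells, with 16.2, 11.6, 17.2 and 17.9 CPM.

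Sema3b, another secreted ligand, was a glial gene at P7. Glia, with a summed glial cells list of 63026 to 70477 CPM, had 809 and 456 CPM of Sema3b against 11.1 ± 2.89 in the other P7 cells (log2 fold change 4.88, SE 0.38, adjusted p = 3.99e-23). The group held 161 Sema3b UMIs from 80 cells. P1 interdental cells were modestly higher, with 12.1, 31, 42 and 11.8 CPM against 12.3 ± 6.29 (log2 fold change 0.56, SE 0.13, adjusted p = 0.00525). P7 HCs were lower, with 0.739 and 2.85 CPM (log2 fold change -1.58, SE 0.24, adjusted p = 1.5e-06). Sema3e, which signals through Plxnd1 without a neuropilin, reached at most 8.68 ± 8.28 CPM, in E16 IHCs from 5 UMIs, and Sema3g at most 0.442 CPM from 1 UMI.

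Class 4 semaphorins are membrane proteins that mostly bind B-type plexins. Sema4c was called in different groups at different ages. It was higher in PC/DCs at P1 (32.6, 20.1, 40.3 and 32.8 CPM against 13.3 ± 5.86, log2 fold change 0.85, SE 0.13, adjusted p = 0.0003). At P7 it was higher in HCs (68.7 and 52.9 CPM against 26 ± 5.11, log2 fold change 0.97, SE 0.21, adjusted p = 0.000158). HCs had 28.6 and 24.2 CPM at E14, 9.58, 7.67 and 2.64 at E16 and 11.7, 14.9, 19.8 and 28.9 at P1, so that the E16 libraries were the low ones and the P7 libraries the high ones. The change of the gap between HCs and the rest from P1 to P7 missed the threshold (log2 difference 0.71, adjusted p = 0.125). The rise within HCs from P1 to P7 (log2 fold change 1.32, SE 0.32, adjusted p = 0.00555) was lost without P7 replicate 4 (log2 fold change 1.16, adjusted p = 0.099). The fall from E14 to E16 (log2 fold change -1.15, SE 0.34, adjusted p = 0.0263) was lost without E14 replicate 1 (adjusted p = 0.104), E16 replicate 2 (adjusted p = 0.0544) or E16 replicate 3 (adjusted p = 0.0818).

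Sema4g was a lateral gene. Lateral non-sensory cells had 26.8 and 33.3 CPM at E14 and 50.03, 41.6 and 25.8 at E16, each above the rest at 8.12 ± 1.17 and 10.2 ± 3.44 (log2 fold change 1.14, SE 0.15, adjusted p = 1.35e-13 and log2 fold change 1.26, SE 0.25, adjusted p = 0.00291). At P1 the same group had 13.2, 16.3, 25.9 and 26.2 CPM and was not called (log2 fold change 0.74, SE 0.25, adjusted p = 0.0511). At P7 PC/DCs were higher, with 21.8 and 36.4 CPM against 7.02 ± 0.278 (log2 fold change 1.17, SE 0.30, adjusted p = 0.000927). Sema4f was highest in E14 LPsCs, with 31.3 and 22.3 CPM, uncalled. It was slightly higher in P1 KO (13.6 ± 2.64 against 8.5 ± 1.18 CPM, log2 fold change 0.35, SE 0.08, adjusted p = 0.0101), a call lost without P1 replicate 3 (adjusted p = 0.0576). Sema4a, Sema4b and Sema4d were never called and had no group above 27.0 CPM. The highest Sema4b mean, 21.8 CPM in E16 Hensen's cells, came from 4 UMIs.

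Sema5b, a membrane semaphorin with thrombospondin repeats known for shaping the branches of spiral ganglion fibres, was the clearest HC member. HCs, the mechanosensory cells, had E14 levels of 52.5 and 64.1 CPM, E16 levels of 76.2, 48.6 and 85.3, P1 levels of 77.3, 156, 129 and 161 and P7 levels of 83.8 and 115. All other cells had 13.2 ± 4.02, 7.03 ± 2.1, 2.79 ± 1.74 and 0.946 ± 0.906 CPM, so that the HCs lay above them in all 11 libraries. Every age was called (log2 fold change 1.56, SE 0.40, adjusted p = 0.00155 at E14, log2 fold change 2.21, SE 0.20, adjusted p = 6.2e-09 at E16, log2 fold change 3.42, SE 0.15, adjusted p = 2e-08 at P1 and log2 fold change 3.31, SE 0.22, adjusted p = 4.21e-14 at P7). At E16, P1 and P7 the other cells lay under 10 CPM, so that Sema5b passed the filter only through its HC levels. The calls at those ages add no support beyond the levels. Only the E14 call was lost under an alternative, without cells of over 3000 genes (adjusted p = 0.0974). The rise within HCs from E16 to P1 was at the threshold (log2 fold change 0.80, SE 0.27, adjusted p = 0.0495). It was lost without E16 replicate 1 (adjusted p = 0.0963), E16 replicate 2 (adjusted p = 0.243), P1 replicate 2 (adjusted p = 0.145), P1 replicate 3 (adjusted p = 0.102), P1 replicate 4 (adjusted p = 0.1), P7 replicate 4 (adjusted p = 0.0642) or P7 replicate 5 (adjusted p = 0.0648).

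At E14 Sema5b was also found outside HCs. LPsCs had 37.1 and 29.6 CPM and lateral non-sensory cells 30.9 and 16.6, both above their remaining cells (log2 fold change 0.92, SE 0.27, adjusted p = 0.0484 and log2 fold change 0.62, SE 0.15, adjusted p = 0.000146). The LPsC call was lost without the filter (adjusted p = 0.131), without cells of over 3000 genes (adjusted p = 0.089) and with 1 CPM added (adjusted p = 0.0589). The hair cells marker list summed to 248 to 319.6 CPM in these LPsCs and to 9943 to 12172 CPM in E14 HCs, and its part in the LPsC level was not tested. By E16 LPsCs had 6.19, 2.06 and 16.5 CPM, a fall (log2 fold change -1.32, SE 0.36, adjusted p = 0.0392) that was lost without E16 replicate 1 (adjusted p = 0.112), E16 replicate 2 (adjusted p = 0.149), P1 replicate 2 (adjusted p = 0.0524) or P1 replicate 3 (adjusted p = 0.0502). It was also lost when the cells of each library were weighted by depth (adjusted p = 0.0984). The gene fell below the filter without either E14 library or without cells of over 3000 genes, and was then not tested. KO was lower than the rest at E16 and P1, with 4.48 ± 1.23 and 1.49 ± 1.66 CPM. Its relative Sema5a was low, with a call only in E16 lateral non-sensory cells, at 31.3, 16.6 and 5.33 CPM (log2 fold change 1.07, SE 0.30, adjusted p = 0.0287), which was lost without E16 replicate 2 (log2 fold change 1.05, adjusted p = 0.106) and not tested without E16 replicate 1. Over all E16 cells the Sema5a mean was 3.04 CPM, so that it passed the filter only through that group. Its highest mean, 51.9 ± 63.6 CPM in P7 mesenchyme, came from 3 UMIs.

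Class 6 semaphorins are membrane proteins that bind A-type plexins. Sema6b, the second HC member, was scarce at E14. E14 HCs held 1 UMI, E16 HCs 19.5, 13.6 and 29.4 CPM, P1 HCs 41.4, 35.5, 57.3 and 103 and P7 HCs 38.8 and 52.6. Each library from E16 on lay above its remaining cells, at 4.87 ± 0.391, 5.6 ± 1.77 and 10.9 ± 0.908 CPM. Each age was called (log2 fold change 1.02, SE 0.22, adjusted p = 0.000745 at E16, log2 fold change 2.06, SE 0.16, adjusted p = 1.41e-06 at P1 and log2 fold change 1.4, SE 0.22, adjusted p = 1.73e-06 at P7). At E16 and P1 Sema6b passed the filter only through these HC levels, so that those calls add no support beyond them. P1 replicate 4 was the high library. The rise from E14 to E16 rests on that 1 UMI, a ratio of E14 to E16 of 0.135 with a counting interval of 0.0033 to 0.795. Its call (log2 fold change 1.3, SE 0.38, adjusted p = 0.0275) was lost under 8 of 21 alternatives, among them without E14 replicate 1 (adjusted p = 0.173), E16 replicate 1 (adjusted p = 0.0652) or E16 replicate 3 (adjusted p = 0.0857). The rise from E16 to P1 (log2 fold change 1.1, SE 0.32, adjusted p = 0.0221) was lost without E16 replicate 1 (adjusted p = 0.0758), E16 replicate 2 (adjusted p = 0.119), P1 replicate 3 (adjusted p = 0.0547) or P1 replicate 4 (adjusted p = 0.0642).

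Sema6a, a membrane ligand of Plxna2 and Plxna4, was highest in the lateral band. LPsCs had 124 and 197 CPM at E14 and 186, 184 and 136 at E16, and PC/DCs 117, 128, 179.6 and 205 at P1 and 48.2 and 58.9 at P7. Their remaining cells had 78.8 ± 4.63, 78.7 ± 14.4, 54.6 ± 21.5 and 18 ± 1.34 CPM. Each library of the group lay above its own remaining cells. All 4 differences were called (log2 fold change 0.91, SE 0.17, adjusted p = 0.00443 at E14, log2 fold change 1.01, SE 0.13, adjusted p = 8.58e-05 at E16, log2 fold change 1.4, SE 0.10, adjusted p = 7.06e-07 at P1, log2 fold change 1.18, SE 0.27, adjusted p = 0.000191 at P7). The E14 call was lost without the filter (adjusted p = 0.0504). PC/DCs themselves fell from P1 to P7 (log2 fold change -1.37, SE 0.28, adjusted p = 0.00185), a call lost without P7 replicate 4 (log2 fold change -1.25, adjusted p = 0.0528). P1 HCs were lower than the rest, with 22, 25.6, 42.3 and 64.9 CPM (log2 fold change -0.62, SE 0.11, adjusted p = 0.000621). Levels over all P1 cells differed between libraries, at 39.4, 51.4, 63.7 and 92.4 CPM.

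Sema6d, another A-plexin ligand, was higher in E14 cycling cells, at 27.3 and 37.9 CPM against 14.8 ± 3.08 (log2 fold change 0.77, SE 0.16, adjusted p = 7.59e-06). E16 cycling cells had 48.6, 19.3 and 44.7 CPM and were not called. In P7 glia it had 47.9 and 92.4 CPM against 4.05 ± 2.8 (log2 fold change 2.47, SE 0.64, adjusted p = 0.0016), a call lost with 1 CPM added (adjusted p = 0.0812). In named groups Sema6c was never called and stayed at or under 19.6 CPM. Sema7a, which is anchored by a lipid and can bind integrins and Plxnc1, was an E16 HC member, at 28.3, 16.7 and 14.5 CPM against 0.595 ± 0.496 (log2 fold change 1.47, SE 0.22, adjusted p = 1.11e-05). It passed the filter only through these HC levels, and without E16 replicate 1 it fell below the filter and was not tested. At P1 its HC levels were 2.0, 9.23, 11.1 and 9.29 CPM and at P7 0 and 2.53, below the filter in these comparisons. The plot of HCs beside all other cells shows the levels of Sema5b, Sema6b, Sema7a and Sema4c and of the receptors by age.

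**Figure D3:**
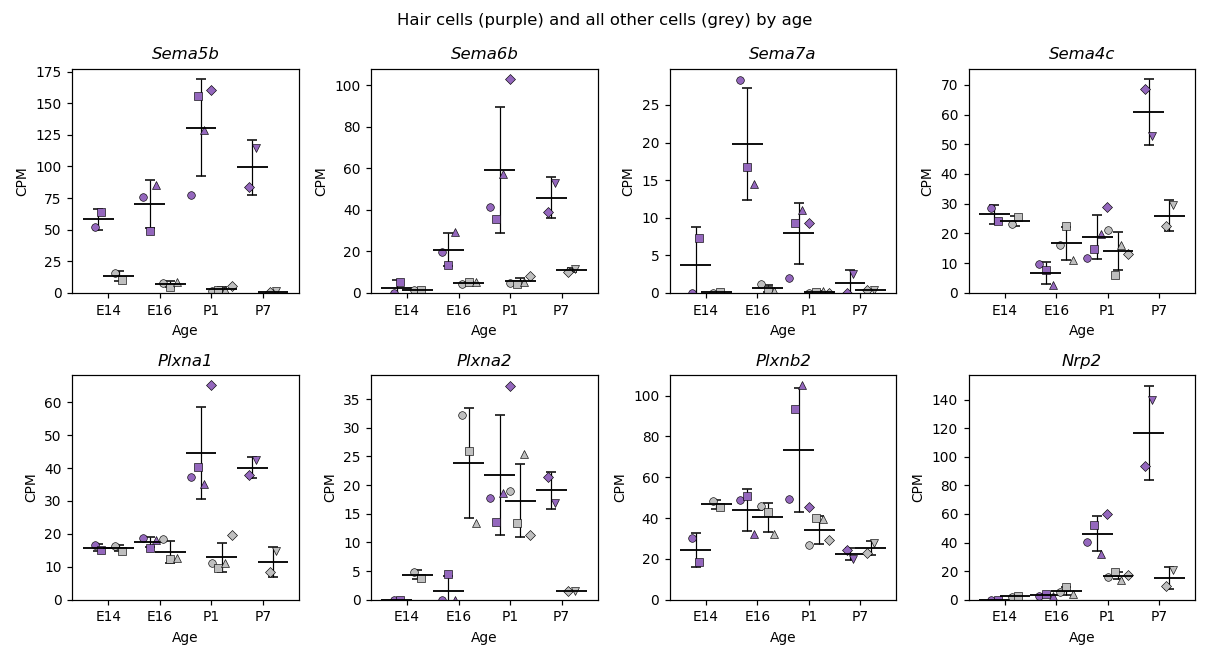
CPM in HCs (purple) and in all other cells (grey) of each library at E14, E16, P1 and P7 for 8 members, with mean (bar) and SD (error bar, cut at 0), and markers circle, square, triangle, diamond and inverted triangle for replicates 1 to 5. Sema5b is above the other cells at every age, and Nrp2 separates from P1 on.

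Plexins are the signalling receptors, and the A-type is shared by class 3 and class 6 ligands. Plxna1 was an HC and PC/DC receptor after birth. Levels were 18.6, 15.8 and 18.1 CPM in E16 HCs, 37.2, 40.3, 35.2 and 65.2 in P1 HCs and 37.9 and 42.4 in P7 HCs, and the E16 libraries lay below all later ones. HCs were higher than the other cells at P1 (12.9 ± 4.48 CPM, log2 fold change 1.24, SE 0.12, adjusted p = 5.83e-06) and at P7 (11.5 ± 4.56 CPM, log2 fold change 1.23, SE 0.22, adjusted p = 1.43e-05). The rise from E16 to P1 (log2 fold change 0.96, SE 0.27, adjusted p = 0.0168) was lost without E16 replicate 2 (log2 fold change 0.91, adjusted p = 0.0711). PC/DCs were higher too, with 20.3, 26.4, 22.1 and 44 CPM at P1 (log2 fold change 0.64, SE 0.12, adjusted p = 0.00176) and 54.6 and 47.1 at P7 (log2 fold change 1.49, SE 0.28, adjusted p = 7.54e-06). P1 KO was lower, at 10.3 ± 3.34 CPM (log2 fold change -0.52, SE 0.08, adjusted p = 0.000951).

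Plxna2 and Plxna4, the receptors of Sema6a, were higher in KO. Plxna2 in KO had 48.4, 34.8 and 18.3 CPM at E16 and 35, 21, 38.3 and 14 at P1, above the remaining cells at 12.5 ± 3.75 and 9.88 ± 3.17 (log2 fold change 0.91, SE 0.14, adjusted p = 0.00157 and log2 fold change 0.86, SE 0.18, adjusted p = 0.00579). Both KO calls were lost without the library as a block (adjusted p = 0.1 at E16 and 0.0605 at P1). E16 HCs had 0, 4.55 and 0 CPM and were lower than the rest (log2 fold change -1.54, SE 0.23, adjusted p = 1.04e-05). P7 HCs, with 21.4 and 16.8 CPM, were higher (log2 fold change 1.34, SE 0.25, adjusted p = 2.4e-05). Over all P7 cells the Plxna2 mean was 2.85 CPM, so that it passed the filter only through these HC levels. That call adds no support beyond them. P1 HCs had 17.7, 13.6, 18.6 and 37.2 CPM, all above the E16 libraries. The rise within HCs was called (log2 fold change 1.44, SE 0.28, adjusted p = 0.0011) and held in each leave-one-out fit but that without P1 replicate 4, where it was not tested. LPsCs at E16 and PC/DCs at P1 were lower than the rest, with 2.32 ± 2.19 and 3.72 ± 2.82 CPM (log2 fold change -1.42, SE 0.25, adjusted p = 0.00107 and log2 fold change -1.06, SE 0.13, adjusted p = 6.02e-05).

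Plxna4 in KO had 14.3 and 21.4 CPM at E14, 31.9, 27.4 and 28.8 at E16 and 15, 25, 35.6 and 14.3 at P1, each library above its remaining cells. The difference was called at the 3 ages (log2 fold change 0.63, SE 0.16, adjusted p = 0.000832, log2 fold change 0.89, SE 0.14, adjusted p = 0.00142 and log2 fold change 0.75, SE 0.13, adjusted p = 0.00298). That at E14 was lost in coarser clusters (log2 fold change 0.37, adjusted p = 0.0811). Without the library as a block, the calls at E14 (adjusted p = 0.0744) and P1 (adjusted p = 0.0585) were lost. HCs and LPsCs at E16 were lower, at 1.48 ± 1.5 and 3.65 ± 2.62 CPM (log2 fold change -1.45, SE 0.22, adjusted p = 1.43e-05 and log2 fold change -1.2, SE 0.24, adjusted p = 0.00319). The E16 LPsCs thus combined the highest Sema6a mean of the named groups with low levels of both receptors. In named groups Plxna3 was never called and stayed at or under 15.4 CPM.

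B-type plexins mostly serve class 4 ligands. Plxnb2 was the plexin of the duct roof before birth and at P1. Oc90 cells had 90.8 and 82.6 CPM at E14, 139, 108 and 91.3 at E16 and 107, 149, 92.4 and 121 at P1, all above their remaining cells at 41.5 ± 1.97, 37 ± 8.3 and 36 ± 9.32 (log2 fold change 0.91, SE 0.12, adjusted p = 8.8e-06 at E14, log2 fold change 1.38, SE 0.20, adjusted p = 0.00108 at E16, log2 fold change 1.47, SE 0.27, adjusted p = 0.000621 at P1). The mesenchymal cells list was present in these groups, at 221 to 228, 232 to 329 and 270.2 to 605 CPM, and its part was not tested. P1 HCs had 49.4, 93.2, 105 and 45.6 CPM against 34 ± 6.87 (log2 fold change 0.86, SE 0.14, adjusted p = 0.000252), with replicates 2 and 3 high. They fell to 24.5 and 20.2 CPM at P7 (log2 fold change -1.3, SE 0.34, adjusted p = 0.00982), a call lost without P7 replicate 4 (adjusted p = 0.0639) or P7 replicate 5 (adjusted p = 0.136).

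PC/DCs moved the other way. They had 35, 44, 44.5 and 37.9 CPM at P1 and 113 and 128 at P7, with no overlap between ages (log2 fold change 1.37, SE 0.28, adjusted p = 0.00209). At P7 they stood well above the remaining cells at 20.6 ± 2.67 CPM (log2 fold change 2.09, SE 0.23, adjusted p = 6.94e-13). Plxnb1 was higher in P1 Oc90 cells, at 48.8, 48.3, 51.1 and 33.7 CPM against 13.3 ± 2.93 (log2 fold change 1.25, SE 0.33, adjusted p = 0.0133). That call was lost without P1 replicate 1 (log2 fold change 1.2, adjusted p = 0.0942) or replicate 4 (log2 fold change 1.28, adjusted p = 0.056). In P7 HCs it had 15.3 and 36 CPM against 9.76 ± 1.48 (log2 fold change 0.79, SE 0.25, adjusted p = 0.00609). Plxnb3 was found in P7 glia, at 43.3 and 56.6 CPM from 14 UMIs (log2 fold change 2.43, SE 0.65, adjusted p = 0.00257), a call lost with 1 CPM added (adjusted p = 0.0793). Over all P7 cells the Plxnb3 mean was 2.39 CPM, so that it passed the filter only through glia. Plxnc1, the receptor of Sema7a, stayed in named groups at or under 9.65 CPM. Plxnd1, the receptor of Sema3e and a vascular gene, was highest in P7 mesenchyme and glia, at 0 and 84.5 and 45.6 and 13.4 CPM, with 9 UMIs in the former.

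Neuropilins are the co-receptors of class 3 ligands, Nrp1 preferring Sema3a and Nrp2 preferring Sema3f. In named groups Nrp1 was low and never called. Its highest means there were 35.2 ± 18.5 CPM in P7 mesenchyme from 7 UMIs and, in named epithelial groups, 23.9, 10.7 and 9.89 CPM in the E16 libraries of lateral non-sensory cells. It had 0 UMIs in P7 HCs and PC/DCs, which allows up to 1.54 and 2.54 CPM at 3 UMIs over the group, for counting error only.

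Nrp2 rose in HCs from E16 to P7. HCs had 0 UMIs at E14, which allows up to 7.71 CPM, E16 HCs 2.65, 4.21 and 2.65 CPM, P1 HCs 40.1, 52.4, 32.3 and 59.8 and P7 HCs 93.5 and 139.9. P1 lay above E16, and P7 above P1, without overlap, while the E14 limit lies above the E16 values, so that these ages cannot be ordered. The rise from E16 to P1 (log2 fold change 2.07, SE 0.27, adjusted p = 2.64e-05) held without any 1 library. That from P1 to P7 (log2 fold change 1.18, SE 0.31, adjusted p = 0.01) was lost without P7 replicate 5 (log2 fold change 0.91, adjusted p = 0.22) and with 1 CPM added (adjusted p = 0.0805). HCs also exceeded the other cells, at 16.9 ± 2.36 CPM at P1 (log2 fold change 1.04, SE 0.13, adjusted p = 3.71e-05) and 15.1 ± 7.89 at P7 (log2 fold change 2.35, SE 0.20, adjusted p = 1.25e-11). In these HC age comparisons, 2, 5 and 3 of 10 members were called from E14 to E16, E16 to P1 and P1 to P7, against 15%, 16.7% and 18.6% of all genes. These counts depended on single libraries. Without E16 replicate 3 the E14 to E16 calls of Sema4c and Sema6b were lost. Without E16 replicate 2 the E16 to P1 calls of Plxna1, Sema5b and Sema6b were lost. The gap between HCs and all other cells was itself compared between ages, a test chosen after the data were seen, and 1, 7 and 6 of 13 members were called over the same steps, against 13.9%, 19% and 27.2% of all genes. Within HCs the members' median log2 change was 0.19 from E14 to E16, 0.79 from E16 to P1 and -0.08 from P1 to P7. That of all genes was -0.03, 0.10 and -0.05.

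P1 interdental cells were the second Nrp2 site, at 96.1, 83.1, 84.1 and 60.2 CPM against 11.9 ± 3.65 in the rest (log2 fold change 2.05, SE 0.15, adjusted p = 1.5e-06). At E16 they had 11.1, 16.6 and 6.09 CPM, below all P1 libraries. P1 KO, inner phalangeal cells and PC/DCs were lower than the rest, at 12.9 ± 3.42, 1.75 ± 1.45 and 3.79 ± 2.59 CPM (log2 fold change -0.58, SE 0.08, adjusted p = 0.001 in KO, log2 fold change -1.36, SE 0.13, adjusted p = 3.32e-07 in inner phalangeal cells, log2 fold change -1.14, SE 0.13, adjusted p = 3.77e-05 in PC/DCs). PC/DCs then gained Nrp2, from 2.66, 7.67, 2.43 and 2.41 CPM at P1 to 31.9 and 78.9 at P7 (log2 fold change 2.16, SE 0.31, adjusted p = 4.76e-05). Without either P7 library Nrp2 fell below the filter and was not tested. PC/DCs were higher than the remaining P7 cells (log2 fold change 0.98, SE 0.27, adjusted p = 0.00196), a call lost without the library as a block (adjusted p = 0.146). The hair cells marker list summed to 368 to 418 CPM in P7 PC/DCs and to 16649 to 16857 CPM in P7 HCs, and its part in the PC/DC level was not tested. The gap between PC/DCs and the rest changed from P1 to P7 for 7 of 14 members, Nrp2 among them, against 26.4% of all genes. In the lateral lineage, from LPsCs to PC/DCs, 1, 1 and 3 of 12 members were called from E14 to E16, E16 to P1 and P1 to P7, against 4.2%, 4.44% and 13.7% of all genes, whose medians shifted by -0.13, 0.08 and -0.11. The member called from E16 to P1 was Sema4f, which fell from 17.6 ± 3.25 to 4.97 ± 2.79 CPM (log2 fold change -0.90, SE 0.25, adjusted p = 0.0483). Leaving out any 1 of 10 libraries ended that call, with adjusted p between 0.053 and 0.187. Without E14 replicate 1 the gene fell below the filter and was not tested.

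**Figure D4:**
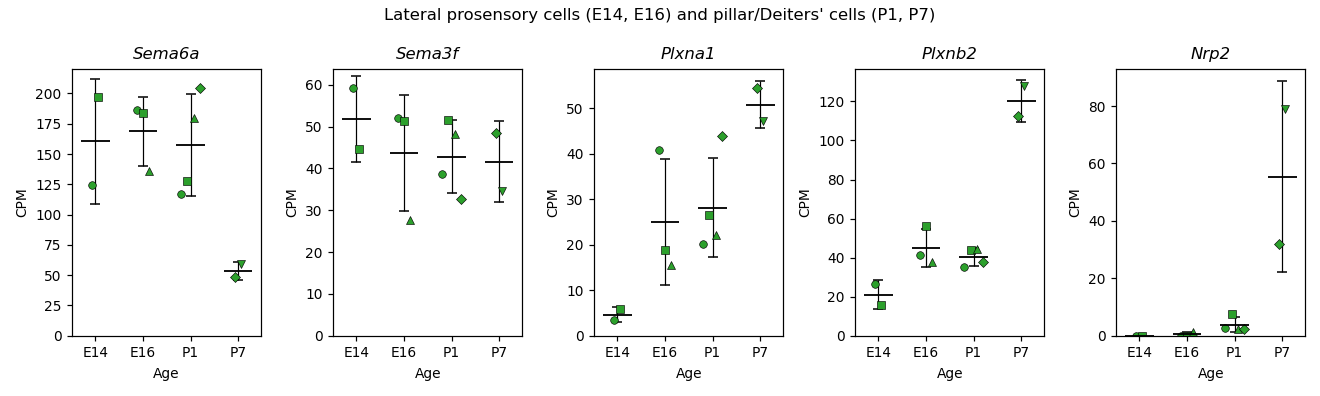
CPM of Sema6a, Sema3f, Plxna1, Plxnb2 and Nrp2 in each library of LPsCs (E14 and E16) and PC/DCs (P1 and P7), with mean (bar) and SD (error bar, cut at 0), and markers by replicate as in the plot of HCs. Sema6a is lower at P7 than at the earlier ages, while Plxnb2 and Nrp2 are higher at P7.

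IHCs and OHCs, which receive different spiral ganglion fibres, were compared within libraries. At P1, 0 of 10 tested members were called by limma, and 1 had an unadjusted p below 0.05, against 14% of all genes called. That member was Plxna2, at 0, 5.09, 14.2 and 31 CPM in IHCs and 22.8, 16.1, 19.6 and 38.2 in OHCs (log2 fold change -0.76, SE 0.27, adjusted p = 0.0528). It was named after its values were seen, and without P1 replicate 4 or in coarser clusters 1 member was called. Sema5b at P1 had 80.1, 170.1, 169.6 and 199.6 CPM in IHCs and 76.5, 152, 119 and 155 in OHCs, higher in IHCs in 4 of 4 libraries but not called (log2 fold change 0.26, SE 0.15, adjusted p = 0.276).

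At P7, 2 of 12 members were called, against 13.6% of all genes. IHCs had 132 and 188 CPM of Sema5b and OHCs 59.6 and 85.2, so that IHCs were higher in both libraries (log2 fold change 1.04, SE 0.27, adjusted p = 0.002). For Nrp2 the order was reversed, with 46.2 and 103 CPM in IHCs and 118 and 154 in OHCs, lower within each library (log2 fold change -0.86, SE 0.28, adjusted p = 0.0207), although IHC and OHC values of different libraries came close. The Nrp2 call was lost without cells of over 3000 genes (log2 fold change -0.74, adjusted p = 0.145), with 50 CPM added (adjusted p = 0.055) and on the mean of the deposited log values (adjusted p = 0.0575). Whether the IHC to OHC differences themselves changed from P1 to P7 was tested with limma, and 0 of 10 members passed, with 2 at an unadjusted p below 0.05, against 3.3% of all genes. The plot of both HC types shows this for 4 members.

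**Figure D5:**
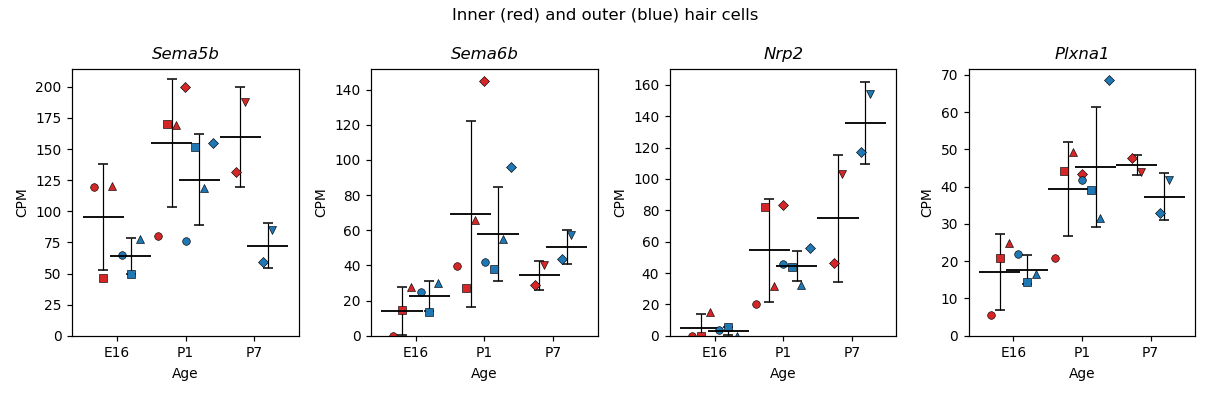
CPM of Sema5b, Sema6b, Nrp2 and Plxna1 in IHCs (red) and OHCs (blue) of each library at E16, P1 and P7, with mean (bar) and SD (error bar, cut at 0), and markers by replicate as in the plot of HCs. At P7 Sema5b is higher in IHCs and Nrp2 higher in OHCs, and at P1 neither was called.

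Partners of the receptors were read from a list of 47 genes: other co-receptors, collapsin response mediators (Crmp and Dpysl genes), which relay class 3 signals to the cytoskeleton, small GTPases of plexin signalling with their exchange factors, and kinases. In HCs 7 of 30 tested genes were higher and 9 lower at E16, 9 and 14 of 27 at P1 and 7 and 13 of 28 at P7, where of all genes 20.1% and 20.4% were higher and lower in E16 HCs, 40.4% and 29% in P1 HCs and 35.7% and 29% in P7 HCs. The list's median log2 fold change was -0.10, -0.33 and -0.20, beside -0.01, 0.12 and 0.11 for all genes. Crmp1 (log2 fold change 3.06 ± 0.21, SE, at E16 and 3.32 ± 0.19 at P1) and Dpysl3 (3.59 ± 0.10 at P1) were the highest, and Rnd3, a small GTPase, the lowest (-2.0 ± 0.17, -2.83 ± 0.16 and -3.04 ± 0.21 at E16, P1 and P7). At P7 the exchange factor Kalrn led (4.15 ± 0.20).

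In LPsCs and P1 PC/DCs the list was led by Nrcam, a cell adhesion molecule that joins neuropilin complexes. The study also counts it as a lateral prosensory gene, and it was in no marker list used to name the groups. It was higher in LPsCs (2.36 ± 0.23 at E14 and 3.2 ± 0.15 at E16) and P1 PC/DCs (3.35 ± 0.13), and lower in KO at E16 (-2.16 ± 0.15) and P1 (-2.31 ± 0.12). From P1 to P7 it fell in the lateral lineage (-2.34 ± 0.25). In P7 PC/DCs the leading genes were Dpysl3 (-2.44 ± 0.28), Rnd2 (2.33 ± 0.14) and Rnd3 (-2.11 ± 0.25). In P1 PC/DCs 13 of 29 list genes were higher and 6 lower (22.9% and 18.6% of all genes), including the plexin-binding GTPases Rnd1 (2.0 ± 0.15) and Rnd2 (1.97 ± 0.09), and the list's median was 0.24 beside 0.03 for all genes. Rnd2 was also higher in lateral non-sensory cells, where Sema3a was high, at E14 (1.45 ± 0.12), E16 (2.39 ± 0.18) and P1 (2.47 ± 0.16).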

How the data were processed

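Cochlear ducts were dissected and dissociated enzymatically, and single cells were captured with a 3′ droplet kit. Per the study's methods and the submitters' processing notes, the authors used Cell Ranger 2.1.1, the mm10 genome and Seurat 2.0. The authors deposited 1 table per age of normalized values, the natural log of 1 plus 10000 times a cell's UMI share of the gene. Whole UMIs were recovered for every value within 0.02. Cells were clustered per age with scanpy 1.11.5 and leidenalg 0.10.2 (2000 variable genes, 30 components, 20 neighbours, resolution 2). Libraries were first aligned by 8 rounds of a Harmony-style correction, which moved library means together within k-means clusters. The Harmony package itself was not used. A cluster was named from the marker list with the highest mean z-score, at 1 or more and 0.35 above the next list (1 above it for HCs), where at least 3 of its markers were raised and at least 1 stood among the top 10 genes. KO needed only 0.3 and was set against epithelial lists alone, and 1 P1 KO cluster of 336 cells scored higher for immune markers (0.74 against 0.64). Unnamed or KO clusters whose cycling list scored 1 or more were called cycling, whatever their best other list. Naming thresholds were set after the clusters were seen, and clusters that met no rule stayed unnamed. So did clusters whose top 10 genes held more markers of another list than of their own. An E14 cluster (1.8, next list 1.39) and an E16 cluster (1.8, next list 1.37) scored best for medial prosensory cells, with Fgf20 among their top 10 genes. They stayed unnamed, with 3 and 2 markers of another list among those genes. KO could not be named at P7, so its ages end at P1. Scrublet marked 7 E14, 7 E16, 178 P1 and 23 P7 cells, at most 2.588% of a library, and these were kept. A further P1 cluster with HC and PC/DC markers was left out.

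CPM was averaged over the cells of a group, at 5 cells or more, and groups were compared within libraries with limma 3.58.1 (mean trend, R 4.3.3, library as block, Benjamini-Hochberg over all genes tested). Ages were compared over libraries without a block. No count test was run on these mixtures of cells. Alternatives were 1 or 50 CPM added, no filter, each library left out, weighting of cells by depth within a library, and means of log values. Further ones were Scrublet cells or cells of over 3000 genes left out, coarser clusters, another block and gated HCs. Intervals on counts are exact at 95% and, like limits from a count of 0, cover counting error only. The named members are those of the symbol rule, described where a mean was high or a call was made. Members and gene lists were chosen with earlier results of these data known.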

Additional observations from a re-analysis of the deposited data

Results flagged for a closer look

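The difference between HCs and all other cells was itself compared between ages with limma, a test chosen after the data were seen, over all genes (13.9%, 19% and 27.2% of which were called from E14 to E16, E16 to P1 and P1 to P7). From E16 to P1 the log2 difference shifted upward for Plxna2 (by 1.73, adjusted p = 0.00193), Nrp2 (by 1.32, adjusted p = 0.000446), Sema5b (by 1.21, adjusted p = 0.00442), Plxna1 (by 1.06, adjusted p = 0.00137), Sema6b (by 1.04, adjusted p = 0.0143), Sema4c (by 0.95, adjusted p = 0.0314) and Plxnb2 (by 0.77, adjusted p = 0.0221). Those of Plxna2, Sema4c and Nrp2 started below 0 at E16, with -1.54 for Plxna2 and -0.68 for Sema4c. The Nrp2, Plxna2, Plxna1 and Sema5b calls were kept when any 1 of 11 libraries was left out, that of Sema6b in 10 of 11, that of Plxnb2 in 7 and that of Sema4c in 6. From E14 to E16 only the Plxnb2 difference shifted upward (by 0.84, adjusted p = 0.0442), and it was kept in 2 of 11.

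From P1 to P7 the HC difference shifted upward for Nrp2 (by 1.30, adjusted p = 0.000462), Sema3c (by 1.97, adjusted p = 0.000373), Plxna2 (by 1.14, adjusted p = 0.0275), Sema6a (by 1.08, adjusted p = 0.0117) and Sema3f (by 0.99, adjusted p = 0.0298), and that of Plxnb2 fell by 1.00 (adjusted p = 0.00792). Sema3c and Sema6a started below 0 at P1, at -1.99 and -0.62. The Nrp2 and Sema3c calls were kept in 11 of 11 leave-one-out fits, those of Plxnb2 and Sema6a in 10, that of Sema3f in 7 and that of Plxna2 in 6. The rest holds all other cells, named or not, and its mix of cell types was not held constant between these ages. The part of that mix in these changes was not tested. Over all P7 cells Sema3c had 3.54 ± 1.36 CPM, against 48.2 ± 6.02 over all P1 cells.

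In PC/DCs the difference from the rest changed from P1 to P7 for 7 members (26.4% of all genes were called). It shifted upward for Nrp2 (by 2.12, adjusted p = 0.000146), Plxnb2 (by 1.96, adjusted p = 9.04e-05), Sema3c (by 1.78, adjusted p = 0.000848), Plxna1 (by 0.85, adjusted p = 0.0207) and Sema4g (by 0.80, adjusted p = 0.0172), and fell by 1.27 for Sema3a (adjusted p = 0.000981) and fell by 0.91 for Sema4c (adjusted p = 0.00805). Nrp2 and Sema3c started below 0 at P1, at -1.14 and -2.24. P7 PC/DCs held 0 Sema3c UMIs, so that its value depends on the added 10 CPM. Calls for Nrp2, Plxnb2 and Sema3c were kept in 6 of 6 leave-one-out fits and Sema3a in 5 of 5, those of Sema4g and Sema4c in 5 of 6 and that of Plxna1 in 3 of 6. No cause of any of these changes was tested. Of 20 sets of 4 P1 libraries examined for a sample far from the others, 0 had one.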

How the results depend on the processing

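Of 153 calls, 84 held under every alternative in which the gene was tested and 0 changed sign. For 22 of the 153 the gene fell below the filter under at least 1 alternative. Without the filter on low genes, calls rose from 30 to 47 at E14, 50 to 81 at P1 and 19 to 54 at P7, and fell from 10 to 6 in HCs and from 2 to 1 in KO across ages. More genes were tested there. The share of all genes called was not computed for this or any other alternative, so that these counts have no matching background. Coarser clusters gave 34 at P7, over 7 named groups in place of 5, 1 between P1 IHCs and OHCs in place of 0, and 3 in the lateral lineage in place of 5, where E14 to E16 could not be compared and Sema4f was not tested. Leaving out 1 library at a time gave counts of 26 to 35 at E16 (35 with all libraries), 40 to 49 at P1 (50), 0 to 1 between P1 IHCs and OHCs, 6 to 12 in HCs, 1 to 5 in KO and 2 to 5 in the lateral lineage across ages. HCs fell to 6 without E16 replicate 2. KO had 1 without E14 replicate 1, E14 replicate 2, E16 replicate 1 or E16 replicate 2, 5 without E16 replicate 3 and 4 without P1 replicate 4. The lateral lineage had 2 without P7 replicate 4 and 3 without any of E14 replicates 1 and 2, E16 replicates 1 and 2, P1 replicates 2 and 3 or P7 replicate 5. The 2 P7 IHC to OHC calls became 1 on means of log values and 1 with 50 CPM added, KO across ages had 1 with 1 CPM added, and the lateral lineage had 3 without cells of over 3000 genes and 3 weighted by depth. No library could be left out within E14 or P7, which have 2 each.

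Same-numbered libraries of different ages showed no common deviation (r from -0.19 to 0.08), while differently numbered ones reached 0.22. Deviations were centred within each age, so that this cannot exclude a pairing by number, and none was used. With the replicate number as a block, calls across ages were 3 in HCs and 3 in the lateral lineage, and without the library as a block calls were 18 at E14 (0 of 13 in LPsCs), 28 at P1 and 0 between P7 IHCs and OHCs. Of the calls made with the library as a block, 88 were kept and 48 lost without it. Not every one of these losses is listed beside its call. The cause was not tested for any of these. Among the low members, 4 were never tested, as their means stayed under the filter of 10 CPM, and 6 stayed under 20 CPM in every named group. The part of depth in this was not tested.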

Other observations

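Beyond the named groups, Nrp1 and Nrp2 were both high in 1 unnamed P7 cluster, led by Ibsp, Coch, Otor and Gdf10 (78 and 144 cells). Its best marker list was that of mesenchymal cells (mean z-score 1.96, next list 0.71). Nrp1, the Sema3a co-receptor, had 102.9 and 113.7 CPM there, 108 ± 7.68 (SD, n = 2), from 88 UMIs, and Nrp2 113.2 and 101.0 CPM, 107 ± 8.64, from 84 UMIs, while Sema3a had 0 UMIs. The cluster was chosen after its values were seen and is given with no test.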
